A study of Mus musculus with 1646 samples.

Results

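Integrins are the cell-surface receptors through which cells grip the extracellular matrix. Each receptor pairs an α subunit, which largely sets the ligand, with a β subunit, whose tail binds talin and kindlin and links the receptor to actin. α1 and α11 pair with β1 as collagen receptors, α7 pairs with β1 as a laminin receptor, α5 and α8 pair with β1 and bind RGD-containing ligands such as fibronectin and, for α8, nephronectin, and α4 and α9 bind VCAM1, fibronectin splice forms, osteopontin or tenascin. β3 and β5 pair with αv, mainly as receptors for vitronectin and other RGD ligands. In connective tissue these receptors anchor fibroblasts to collagen fibres and vascular mural cells to basement membrane.

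The 10 integrin subunits described here, 7 α (*Itga1*, *Itga4*, *Itga5*, *Itga7*, *Itga8*, *Itga9*, *Itga11*) and 3 β (*Itgb1*, *Itgb3*, *Itgb5*), are named members of a list, found by their Ensembl identifiers among the 46517 genes of the table. All 10 were present, and all 10 passed the filter on low counts in each of the 7 comparisons. They were measured by SmartSeq2, a plate-based protocol in which full-length cDNA is made from 1 sorted cell, in 1646 colon cells of male mice aged 10 to 20 weeks. The cells were sorted on the reporter and against CD31, an endothelial surface protein, from 4 lines, PdgfrbGFP (761 cells on 4 plates), Acta2GFP (567 on 2 plates), Cspg4dsRED (91 on 1 plate) and PdgfraGFP (the remaining cells, on 2 plates), in which the fluorescent protein follows the regulatory sequence of the named gene, so each line captures its own selection of cells. Tissue of the Acta2GFP line was additionally treated with elastase. All mice carried a reporter, and the labels give no treatment. The labels give each cell a line, a plate and a cluster from 1 to 8, but no mouse. The line was therefore taken as the replicate, the p-values measure only the spread between lines or plates, and lines and mice cannot be told apart.

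Clusters 1, 2, 5, 6 and 7 (1307 cells) are fibroblasts and clusters 3, 4 and 8 (the other cells) are mural cells, the contractile and supporting cells of vessels and smooth muscle. The summed level of *Pdgfra*, *Col1a1*, *Lum*, *Dcn* and *Cd34* ran from 2772 to 8951 counts per 500000 in the lines of the fibroblast clusters and from 116.2 to 1768 in those of the mural clusters. Of the mural clusters, cluster 3 (vascular smooth muscle, 8.57% of all cells) held *Acta2*, *Myh11*, *Tagln*, *Cnn1* and *Des* at a summed 8228, cluster 4 (pericytes, 8.63%) held *Rgs5*, *Kcnj8*, *Abcc9*, *Notch3* and *Cspg4* at 5444, and cluster 8 (interstitial smooth muscle, 56 cells) held *Hhip* and *Rgs10* at 1809. Cluster 2 (7.96% of all cells) held *Tnc*, *Il1rl1*, *Ptgs2*, *Bmp2* and *Lama5*, genes of fibroblasts at the crypt apex, at 4193, against 49.6 to 596 in the other fibroblast clusters. Summed markers of endothelial, epithelial, glial, immune and mesothelial cells lay between 0 and 13.2 in every cluster and line. Those of interstitial cells of Cajal, *Kit* and *Ano1*, summed to 245.3 to 363.8 in cluster 3 and 142.8 to 447.2 in cluster 4, but to 23.6 in cluster 8. In the fibroblasts they summed to 98.1 to 219.6 in cluster 2, at most 43.9 in cluster 5, at most 54.01 in cluster 6 and at most 2.6 in clusters 1 and 7. Nearly all of it was *Ano1*, and its part in the results was not tested. Counts on genes ran from 47598 to 1494292 per cell, with medians from 113721 in Cspg4dsRED to 322654 in PdgfraGFP. A level below is the mean over cells of counts per 500000 counts of the cell, taken per line where at least 10 cells were present and then given as the mean ± SD over lines. The study defined its clusters on these very counts, so no test between them is independent of the grouping. The labels give cluster numbers only, and the names come from the study's methods and the markers above.

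In mural cells *Itga1*, *Itga4*, *Itga7* and *Itga8* were higher than in fibroblasts, 4 of the 10 members, while no member passed the test in the other direction. Of the 19173 genes tested, 3.36% passed as higher in mural cells and 3.21% as higher in fibroblasts, together 6.57%, or 3.08% with a block for the line, in which the same number of members passed. The median log2 difference of the members, fibroblasts minus mural cells, was -0.99, beside -0.03 over all genes tested. The question is which matrix receptors go with each of the cell archetypes.

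*Itga7*, the laminin-binding α chain best known from muscle, stood at 5.41, 1.69, 1.28 and 7.03 counts per 500000 in the fibroblasts of Acta2GFP, Cspg4dsRED, PdgfraGFP and PdgfrbGFP. In the mural cells of Acta2GFP, Cspg4dsRED and PdgfrbGFP it stood at 87.5, 335.4 and 180.65. PdgfraGFP gave only 2 mural cells and no mural sum. No fibroblast line came near a mural line. The log2 difference was -5.69 ± 0.66 (SE; edgeR quasi-likelihood test, Benjamini-Hochberg adjusted p = 0.0016).

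*Itga8*, an α chain of contractile cells that binds nephronectin, was among the members the subunit closest to absent from fibroblasts. Its fibroblast levels were 0.46 in Acta2GFP, 2.68 in Cspg4dsRED, 0 in PdgfraGFP and 0.19 in PdgfrbGFP, and its mural levels were 118.4, 73.3 and 54.5 in Acta2GFP, Cspg4dsRED and PdgfrbGFP. The highest fibroblast line thus lay far under the lowest mural line. The fitted log2 difference was -8.65 ± 1.22 (adjusted p = 0.0035, edgeR), a value that depends on how near-zero counts are treated.

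*Itga1*, a collagen-binding α chain that also binds laminin, was at 20.1, 23.4, 24.2 and 8.87 in the fibroblasts of Acta2GFP, Cspg4dsRED, PdgfraGFP and PdgfrbGFP. The mural levels were 160.2, 304.6 and 152.4 in Acta2GFP, Cspg4dsRED and PdgfrbGFP, again without overlap. The log2 difference was -3.42 ± 0.41 (adjusted p = 0.0017, edgeR). Of the exon bases of *Itga1*, 3.68% lie in exons of *Gm49395*. How reads from shared bases were counted is not given in the sources used here, so their effect on the counts is not known.

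*Itga4*, the partner of β1 in the VCAM1 receptor, was at 7.19, 0.61, 12.4 and 3.35 in the fibroblasts of the same 4 lines and at 63.9, 114.4 and 54.3 in the mural cells of the same 3. The groups did not overlap, and the log2 difference was -4.22 ± 0.69 (adjusted p = 0.0071, edgeR). Without the Acta2GFP line its adjusted p was 0.0507 and without PdgfrbGFP it was 0.0584, and that of *Itga8* without PdgfrbGFP was 0.0578. *Itga4* shares 8.04% of its exon bases with *Cerkl*, *Itga8* shares 5.05% with *E030013I19Rik* and *Itga7* shares 9 bases with *Mettl7b*.

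In GRCm38 (GENCODE vM21) *Itga1* lies at chromosome 13, 114953096 to 115101964 on the minus strand, *Itga4* at chromosome 2, 79255426 to 79333123 on the plus strand, *Itga7* at chromosome 10, 128933818 to 128958282 on the plus strand, and *Itga8* at chromosome 2, 12106632 to 12301922 on the minus strand. Both *Itga4* and *Itga8* are thus on chromosome 2, far apart. RefSeq windows were matched for 8 of the 10 members. The 250 bases before the start site are shown for 3 genes that were higher together in mural cells, to let their promoters be compared (RefSeq, GRCm38.p6). Each is written 5′ to 3′ on the strand of its gene, with the hexamers CAGCTG, an E-box core, and GGGCGG, a GC box core, in capitals on either strand.
Itga1 (chr13:115101965-115102214, minus): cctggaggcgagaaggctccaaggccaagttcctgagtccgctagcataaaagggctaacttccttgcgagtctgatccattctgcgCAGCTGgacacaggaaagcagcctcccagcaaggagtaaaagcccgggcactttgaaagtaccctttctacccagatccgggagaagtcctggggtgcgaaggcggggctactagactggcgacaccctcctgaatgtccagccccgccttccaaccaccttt
Itga4 (chr2:79255176-79255425, plus): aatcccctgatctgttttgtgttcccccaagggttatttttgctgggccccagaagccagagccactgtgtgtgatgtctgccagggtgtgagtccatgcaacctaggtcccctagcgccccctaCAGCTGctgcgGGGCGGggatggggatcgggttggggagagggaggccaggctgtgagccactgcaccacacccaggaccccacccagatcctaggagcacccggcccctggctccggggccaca
Itga8 (chr2:12301945-12302194, minus): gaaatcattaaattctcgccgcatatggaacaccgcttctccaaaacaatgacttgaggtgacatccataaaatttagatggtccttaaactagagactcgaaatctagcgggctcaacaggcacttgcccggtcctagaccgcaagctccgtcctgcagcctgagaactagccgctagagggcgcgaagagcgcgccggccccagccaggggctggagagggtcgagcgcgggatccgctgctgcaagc
CAGCTG occurred once in the *Itga1* and in the *Itga4* window and GGGCGG once in that of *Itga4*, while the *Itga8* window held neither. Among the same 250 bases of 32851 promoters, 4271 held CAGCTG and 32.7% held GGGCGG. The CArG box, the element bound by serum response factor in many smooth muscle genes, was in 1.5% of all promoters and TATAAA in 12.4%, and neither was in any of the 3 windows shown.

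*Itga11*, the collagen receptor chain of fibroblasts, ran the other way but missed the threshold. Its fibroblast levels were 138.5, 110.1, 155.1 and 126.65 in Acta2GFP, Cspg4dsRED, PdgfraGFP and PdgfrbGFP, and its mural levels were 26.8 in Acta2GFP, 0.29 in Cspg4dsRED and 5.26 in PdgfrbGFP. The groups did not overlap, and the log2 difference was 4.08 ± 1.09 (adjusted p = 0.056, edgeR), past the threshold in 4 of 10 alternatives. Without Acta2GFP, the only line with enough cells of cluster 8, it was 6.31 (adjusted p = 0.021).

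*Itgb1*, the β chain shared by most of these receptors, was per kilobase of exon the most abundant member in every cluster, at 72.4 counts per 500000 and kilobase in cluster 7 and 218.3 in cluster 8, and was present in nearly every cell. Its levels were 393.7, 439.1, 322.6 and 360.98 in the fibroblasts of Acta2GFP, Cspg4dsRED, PdgfraGFP and PdgfrbGFP and 853, 774 and 656 in the mural cells of Acta2GFP, Cspg4dsRED and PdgfrbGFP. The groups did not overlap, with a log2 difference of -1.01 ± 0.26 (adjusted p = 0.052, edgeR; past the threshold in 4 of 10 alternatives). *Itga5*, the α chain of the classical fibronectin receptor, was 107.4 ± 29.1 in fibroblasts (SD, n = 4) and 47.3 ± 35.4 in mural cells (n = 3), with overlapping lines and a log2 difference of 1.08 ± 0.47 (adjusted p = 0.24). *Itgb5* was 99.1 ± 15.2 and 84.6 ± 29.8, a log2 difference of 0.14 ± 0.32 (adjusted p = 0.89).

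*Itga9* and *Itgb3* had class differences of opposite sign in PdgfrbGFP and Acta2GFP. In the 3 plates of PdgfrbGFP with both classes, *Itgb3* was 13.05, 19.9 and 40.3 in fibroblasts and 0.74, 3.42 and 9.70 in mural cells. In the 2 Acta2GFP plates it was 16.97 and 19.9 in fibroblasts and 66.97 and 71.7 in mural cells. *Itga9* followed the same order, at 18.6, 14.1 and 39.2 against 4.04, 5.78 and 9.86 in PdgfrbGFP and 26.2 and 15.4 against 83.1 and 68.99 in Acta2GFP. On the Cspg4dsRED plate *Itgb3* was 20.1 and 10.95 and *Itga9* 3.73 and 2.59. Of the 84 mural cells of Acta2GFP, 52 belonged to cluster 8, in which both genes were high, while in cluster 3 the Acta2GFP line was at 1.82 for *Itgb3* and 5.01 for *Itga9*. Over the lines, *Itga9* differed by -0.97 ± 0.86 (adjusted p = 0.63) and *Itgb3* by -0.55 ± 0.70 (adjusted p = 0.77), while blocking by line gave 0.30 for *Itgb3*.

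**Figure D1:**
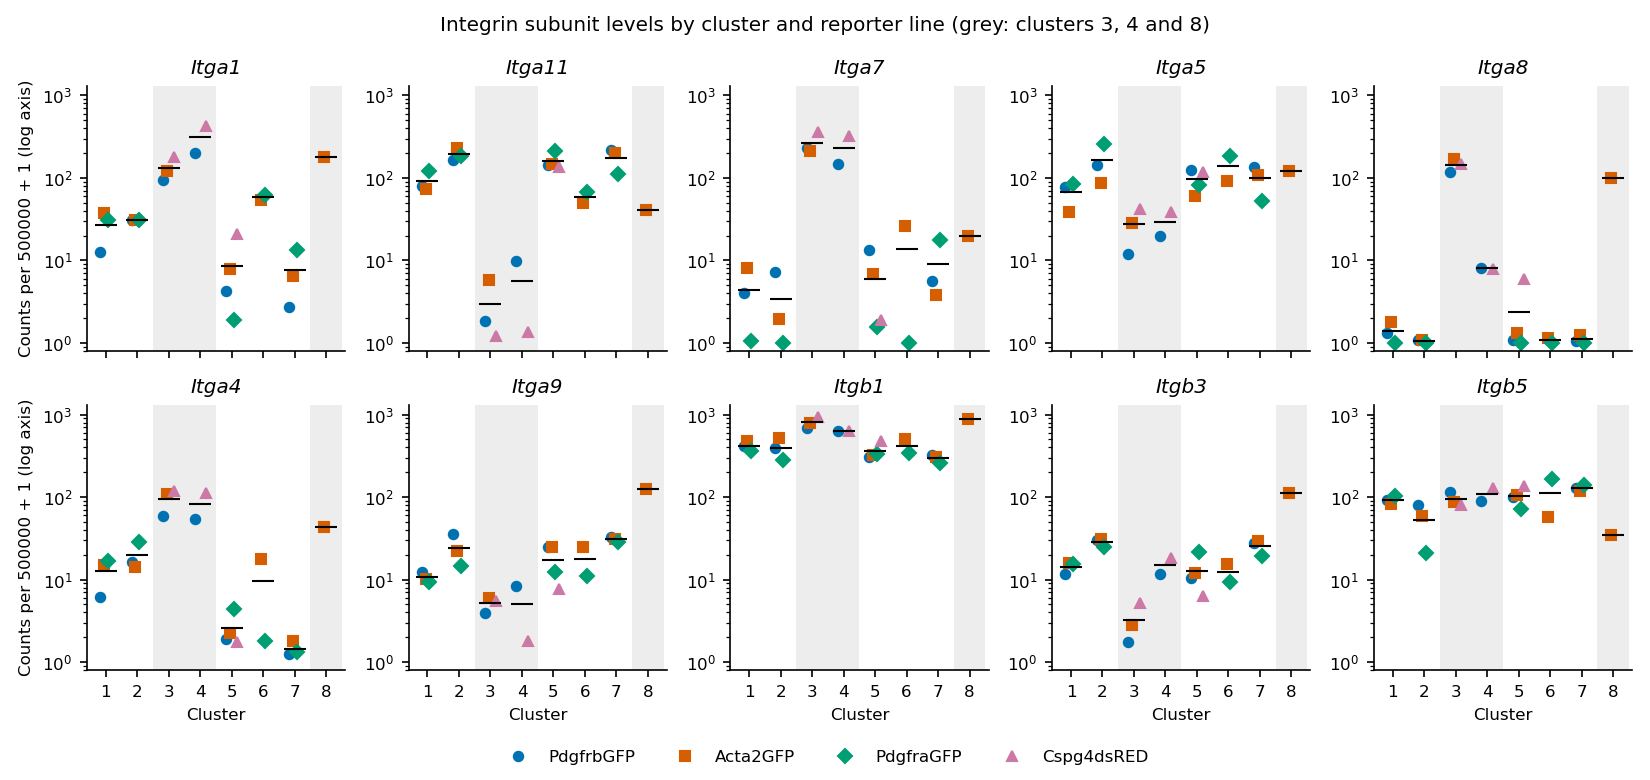
Levels of the 10 subunits (counts per 500000 plus 1, log axis) in clusters 1 to 8. Each symbol is 1 reporter line with at least 10 cells of the cluster, the bar is the mean over lines and grey marks the mural clusters. *Itga7* is high in clusters 3 and 4, *Itga8* in clusters 3 and 8, *Itga1* in clusters 3, 4 and 8, *Itga11* in the fibroblast clusters, and *Itga9* and *Itgb3* in cluster 8.

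The shares of cells with at least 1 count followed the levels for most members, but not for *Itga9* and *Itgb3*, whose mean level over lines was higher in mural cells. *Itga9* was counted in 44.8% of fibroblasts and 30.97% of mural cells, or 24.6% and 19.5% after each cell was thinned to 50000 counts, and *Itgb3* in 39.7% and 25.1%, or 21.3% and 17.4%. *Itgb1* was counted in 99.5% of fibroblasts and 100% of mural cells. *Itga7* was counted in 21.3% of fibroblasts and 73.5% of mural cells, which became 7.7% and 61.4% when each cell was thinned to 50000 counts. For *Itga8* the shares were 7.0% and 55.2%, or 2.2% and 42.8% after thinning. For *Itga11* they were 86.8% and 30.7%, or 69.3% and 17.1%. Without molecular identifiers such shares cover sampling of reads, not of molecules. After thinning, a cell of cluster 3 had counts for a median of 3 of the 7 α members, a cell of cluster 8 also 3, and a cell of every other cluster 2. A count for *Itgb1* and at least 1 α member was found in 100% of the 140 cells of cluster 3 and the 54 of cluster 8, and in 86.5% of the cells of cluster 1, the lowest share of the 8 clusters.

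Scaled by exon length, so that genes can be set beside each other, the members made up between 84.3% and 91.3% of all α subunit mRNA in each cluster, of 18 α subunits listed, and between 98.2% and 99.9% of the β subunit mRNA, of 8 listed. In clusters 1, 5 and 7 *Itga11* held 42.4% ± 2.5, 52.1% ± 8.7 and 51.9% ± 2.4 of the α total (SD; n = 3, 4 and 3 lines) and *Itga5* held 31.9% ± 9.1, 32.6% ± 9.7 and 29.5% ± 5.4. In cluster 6 the order was turned, with *Itga5* at 50.2% ± 10.3 and *Itga11* at 21.1% ± 1.4 (n = 2). In cluster 3 *Itga7* held 39.3% ± 6.9 and *Itga8* 23.6% ± 4.2 (n = 3), and in cluster 4 *Itga7* held 43.5% ± 4.8 and *Itga1* 25.3% ± 2.4 (n = 2). The length used is that of all annotated exons merged, and the order can depend on it. Without scaling, *Itga1* exceeded *Itga7* in cluster 4 (308.8 against 232.3 counts per 500000). Cluster 8, with 1 line, was mixed, with *Itga5* at 29.3%, *Itga9* at 19.1%, *Itga8* at 15.9%, *Itga1* at 11.5% and *Itga11* at 9.2%. Of the β total *Itgb1* held between 63.7% in cluster 7 and 88.1% in cluster 8, and *Itgb5* held between 3.8% in cluster 8 and 31.8% in cluster 7.

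**Figure D2:**
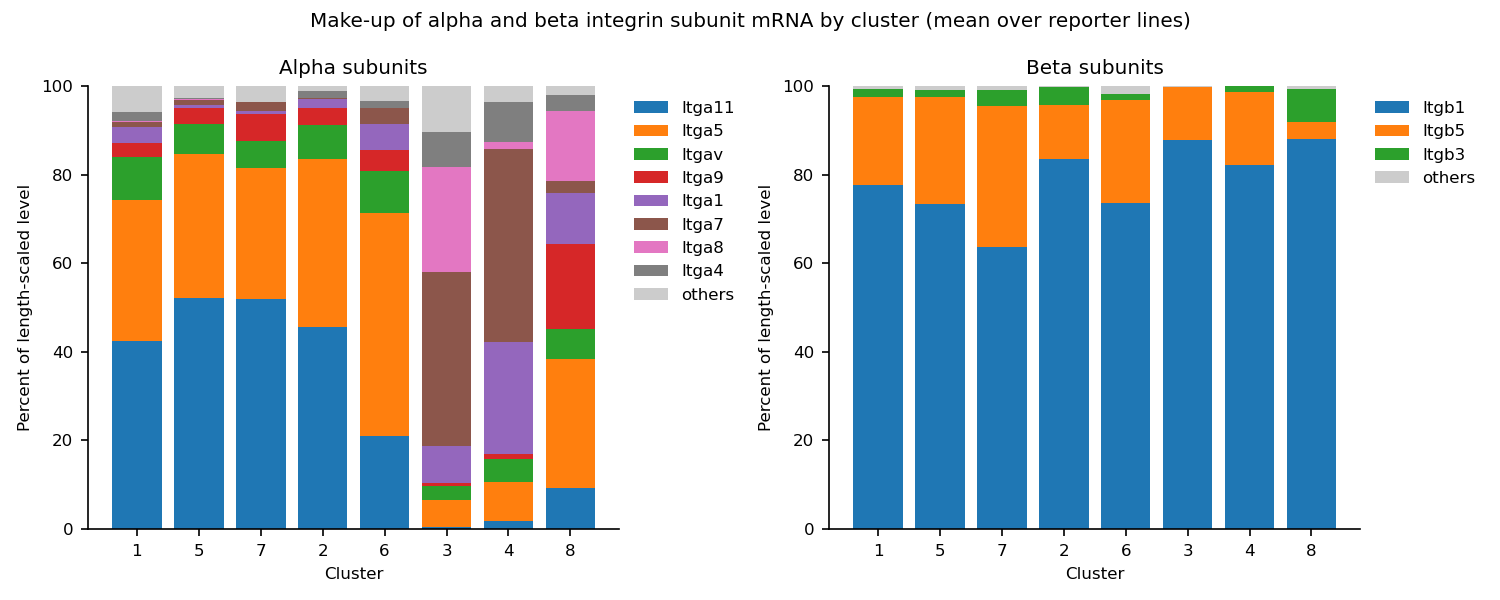
Percent of the length-scaled α (left) and β (right) integrin mRNA held by each subunit, as stacked bars per cluster (mean over reporter lines, fibroblast clusters first). *Itga11* and *Itga5* fill most of each fibroblast bar, *Itga7* leads in clusters 3 and 4, and *Itgb1* is the largest β fraction in every cluster.

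Across the clusters the order of levels differed by subunit. *Itga1* was highest in cluster 4 (308.8 ± 156.3, n = 2), followed by cluster 8 (178.3, n = 1), at the upper end of cluster 3 (130.8 ± 43.3, n = 3), and lowest in clusters 5 and 7 (7.7 ± 8.4 and 6.5 ± 5.4), which overlapped. Among the fibroblast clusters *Itga1* was highest in cluster 6, at 52.5 in Acta2GFP and 61.5 in PdgfraGFP, without overlap with cluster 2. *Itga4* was highest in clusters 3 and 4 (94.8 ± 31.97 and 82.4 ± 41.1), which overlapped, and reached 0.46 ± 0.30 in cluster 7. *Itga5* was highest in cluster 2 (162.6 ± 87.9) and each cluster overlapped the next down the order to cluster 1. Clusters 4 and 3 were lowest (27.9 ± 13.3 and 26.7 ± 15.1), of which cluster 3 still overlapped cluster 1. *Itga7* was at 266.2 ± 77.5 in cluster 3 and 232.3 ± 120.7 in cluster 4, then 18.7 in cluster 8. *Itga8* was at 143.3 ± 25.2 in cluster 3, 98.1 in cluster 8 and 7.0 in cluster 4, with every fibroblast cluster at or below 1.4. *Itga9* was at 123.02 in cluster 8, 29.9 ± 2.4 in cluster 7 and 4.0 ± 4.6 in cluster 4. *Itga11* was highest in cluster 2 (192.1 ± 31.7), which overlapped clusters 7 and 5, and lowest in cluster 3 (2.0 ± 2.5). *Itgb1* was highest in cluster 8 (891) and cluster 3 (811 ± 123.3), which overlapped, and lowest in cluster 7 (295.5 ± 31.2). *Itgb3* was at 109.9 in cluster 8 and 27.5 ± 3.0 in cluster 2. *Itgb5* was nearly level, from 127.8 ± 11.2 in cluster 7 down to 91.7 ± 9.9 in cluster 1 with overlapping neighbours, then lower in cluster 2 (52.4 ± 30.3) and cluster 8 (33.3).

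Within the fibroblasts, cells of the crypt apex (cluster 2) had more *Itga1* and *Itga4* than the mean of clusters 1, 5 and 7, though not more than cluster 1 in every line. Fibroblast cluster 6 was not in this contrast, and its *Itga1* was higher than that of cluster 2. Its *Itga4* was 16.6 in Acta2GFP, above cluster 2, and 0.83 in PdgfraGFP, below it. *Itga1* and *Itga4* were 2 of the 10 members, and 4.42% of the 21739 genes tested passed as higher in cluster 2 and 1.86% as higher in clusters 1, 5 and 7. Of the called genes 70.4% were thus higher in cluster 2, against 45.9% with DESeq2. *Itga4* stood at 13.3, 27.5 and 15.2 in cluster 2 of Acta2GFP, PdgfraGFP and PdgfrbGFP. In cluster 1 of these lines it stood at 14.2, 15.9 and 5.2, and in clusters 5 and 7 at no more than 3.5 in any line. Clusters 2 and 1 thus overlapped, and the contrast with the mean of the 3 clusters rested on clusters 5 and 7. The log2 difference was 3.49 ± 0.59 (adjusted p = 0.000745, edgeR), past the threshold in all 11 alternatives.

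*Itga1* stood at 29.7, 29.8 and 29.7 in cluster 2 of the same lines, against 36.3, 30.1 and 11.6 in cluster 1, 6.8, 0.87 and 3.3 in cluster 5 and 5.6, 12.4 and 1.7 in cluster 7. Cluster 5 of Cspg4dsRED stood at 19.7. Cluster 6, left out of the contrast, stood at 52.5 in Acta2GFP and 61.5 in PdgfraGFP, above cluster 2 in both lines. Clusters 2 and 1 overlapped, with cluster 1 the higher in Acta2GFP and PdgfraGFP. The log2 difference was 2.02 ± 0.53 (adjusted p = 0.023, edgeR). It missed the threshold without Acta2GFP (adjusted p = 0.24), without PdgfrbGFP (0.15), with means per cell in limma (0.11) and with only the compared clusters in the fit (0.067). *Itga5* (1.17 ± 0.40, adjusted p = 0.10), *Itgb3* (1.5 ± 0.56, adjusted p = 0.14) and *Itgb5* (-0.96 ± 0.42, adjusted p = 0.24) did not pass. With only the compared clusters in the fit *Itga5* (adjusted p = 0.0297) and *Itgb3* (0.00704) passed, and with limma *Itgb5* did (0.0459). Beside these values, *Kit* and *Ano1*, markers of interstitial cells of Cajal, summed to 98.1 to 219.6 in the lines of cluster 2 and to at most 43.9 in clusters 1, 5 and 7. The sum in cluster 2 was nearly all *Ano1*, since *Kit* was at most 1.497 in any line of cluster 2. Their part in the result was not tested.

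Between cluster 7 and cluster 1, the ends of the other fibroblasts, no member passed in the edgeR fit on filtered line sums. In that fit 0.12% of genes passed as higher in cluster 7 and 0.368% as higher in cluster 1. Those higher in cluster 7 made up 24.5% of the called genes, 49.9% with only the compared clusters in the fit and 48.9% with plates in place of lines. Of the members 2 of 10, and of all genes 1966 of 21739, had an unadjusted p under 0.05. *Itga4* had a log2 difference of -3.93 ± 0.93 (adjusted p = 0.067), with 0.8, 0.3 and 0.3 in cluster 7 of Acta2GFP, PdgfraGFP and PdgfrbGFP and 14.2, 15.9 and 5.2 in cluster 1, without overlap. It passed with DESeq2 (adjusted p = 0.000545), with limma, without the filter and with plates in place of lines. *Itga1* differed by -1.95 ± 0.74 (adjusted p = 0.40).

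Among the 10 members, the difference between pericytes (cluster 4) and vascular smooth muscle (cluster 3) was largest in *Itga8*, which missed the threshold. It stood at 166.8, 146.2 and 116.7 in cluster 3 of Acta2GFP, Cspg4dsRED and PdgfrbGFP and at 7.0 and 7.1 in cluster 4 of Cspg4dsRED and PdgfrbGFP. The groups lay far apart, with a log2 difference of -4.79 ± 1.66 (adjusted p = 0.24, edgeR), and 4 of 11 alternatives passed. These were limma on means per cell (adjusted p = 0.0014) and edgeR with only the compared clusters in the fit (0.0087), with plates in place of lines (0.0499) or without PdgfraGFP (0.037). No member passed with edgeR on all clusters and lines or with DESeq2. An unadjusted p under 0.05 in that edgeR fit was found for 1 of the 10 members, *Itga8*, and for 2756 of all 21739 genes. Of all genes 0.621% passed as higher in cluster 4 and 0.198% as higher in cluster 3. The higher ones made up 75.8% of the called genes, 53.1% with DESeq2 and 38.3% with only the compared clusters. *Itga1* was 419.4 and 198.3 in cluster 4 and 93.4 to 178.3 in cluster 3 (log2 difference 0.99 ± 0.78, adjusted p = 0.69), *Itgb3* was 17.1 and 10.7 against 0.74 to 4.20, without overlap (1.53 ± 0.83, adjusted p = 0.47, or 0.0244 with limma), and *Itga7* differed by -0.24 ± 1.83 (adjusted p = 1.00).

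Interstitial smooth muscle (cluster 8) had 1 sum, from 52 Acta2GFP cells, and so no replicate, and its levels of *Itgb3*, *Itga11* and *Itga9* stood above every sum of vascular smooth muscle. The fit assumed that this sum varied like those of the other clusters, so each error and p given for cluster 8 rests on spread taken from them. On that assumption 2 of the 10 members passed, *Itga11* and *Itgb3*, where 0.879% of genes passed as higher in cluster 8 and 0.129% as higher in cluster 3. The higher ones made up 87.2% of the called genes, 46.3% with DESeq2 and 37.9% with only the compared clusters in the fit. Elastase was used for the Acta2GFP line only, which also gave a cluster 3 sum, and its part in these differences was not tested. The only other cluster 8 cells, 4 of PdgfrbGFP and too few for a sum, had 58.2 for *Itgb3*, 5.18 for *Itga11* and 150.2 for *Itga9*. *Itgb3* was 109.9 there and 1.82, 4.20 and 0.74 in cluster 3 of Acta2GFP, Cspg4dsRED and PdgfrbGFP, a log2 difference of 5.06 ± 0.99 (adjusted p = 0.011, edgeR). *Itga11* was 39.4 against 4.83, 0.21 and 0.83, a log2 difference of 4.69 ± 1.00 (adjusted p = 0.022). *Itga9*, a tenascin receptor chain, was 123.02 against 5.01, 4.56 and 2.89, a log2 difference of 4.38 ± 1.08 (adjusted p = 0.056), past the threshold in 6 of 10 alternatives. Within the Acta2GFP line alone, the direction of all 3 was the same. Without PdgfrbGFP the adjusted p was 0.14 for *Itgb3* and 0.080 for *Itga11*, and no member passed. *Itga7* was 18.7 against 211.4, 354.9 and 232.2, outside their range, with a log2 difference of -3.54 ± 2.91 (adjusted p = 0.81). With only the compared clusters in the fit *Itga7* passed (adjusted p = 0.0401), while *Itgb3* (0.100) and *Itga11* (0.2875) did not. *Itgb1* (0.11 ± 0.49) and *Itga1* (0.31 ± 0.99) differed by less than their errors, and so did *Itga8* (-0.81 ± 1.76), high in both.

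**Figure D3:**
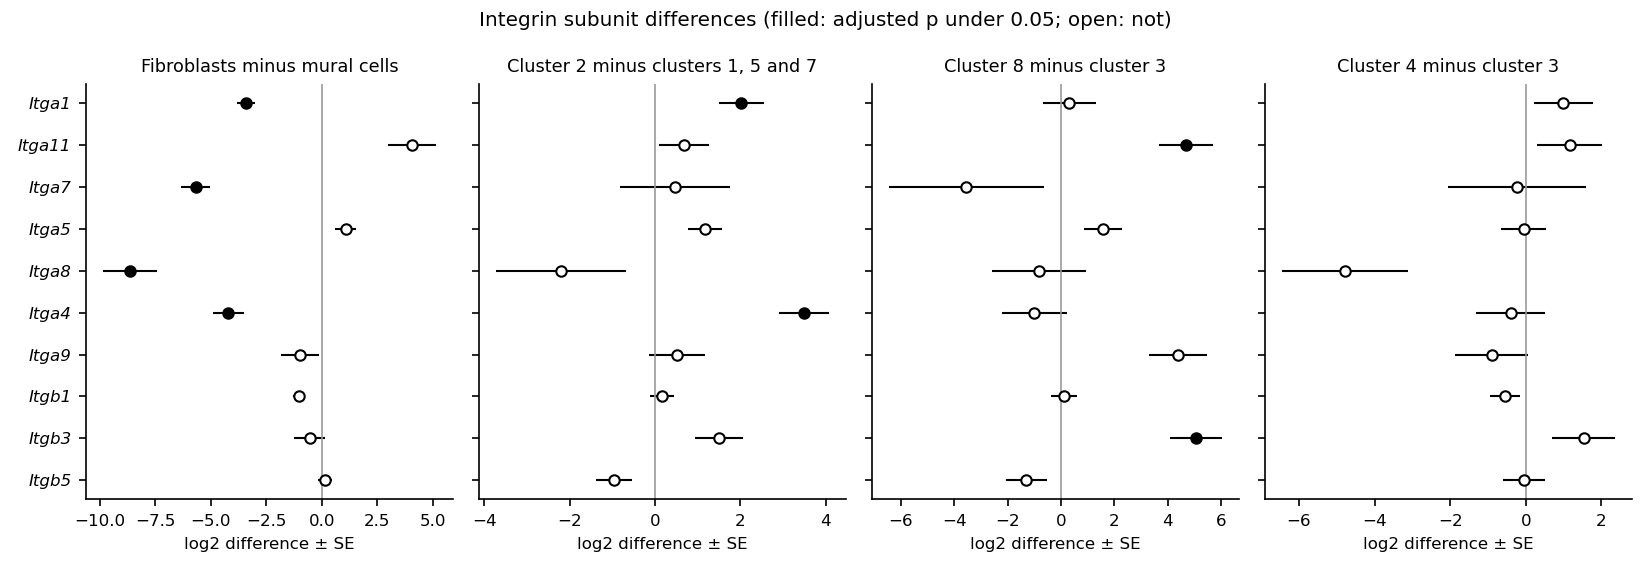
log2 differences ± SE of the 10 subunits in 4 comparisons, from edgeR. Filled points passed an adjusted p of 0.05 and open points did not. *Itga1*, *Itga4*, *Itga7* and *Itga8* lie left of 0 for fibroblasts minus mural cells, *Itga1* and *Itga4* right of 0 for cluster 2, and *Itga11* and *Itgb3* right of 0 for cluster 8, which had 1 sum and no replicate, so that its bars and filled points rest on the spread of other clusters.

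Between the reporter lines, fibroblasts of clusters 1, 5 and 7 were compared by plate, which asks whether the line alters these levels. No member passed for Acta2GFP or for PdgfraGFP against PdgfrbGFP, and 0% of the 20114 genes passed in either direction of either comparison. At an unadjusted p under 0.05 there were 708 and 1363 genes, and DESeq2 called 33 and 300. With the cluster as a term 3 and 15 genes passed, and without the PdgfraGFP plate that held more of these fibroblasts 89 genes passed for PdgfraGFP, all lower. The Acta2GFP and PdgfrbGFP plates did not overlap for *Itga1*, *Itga5*, *Itga4* and *Itga8*. How many of all genes separate in this way was not counted. *Itga1* was 15.99 and 19.8 on the Acta2GFP plates and 8.7, 5.9, 2.0 and 4.9 on the PdgfrbGFP plates (log2 difference 1.69 ± 0.71, adjusted p = 1.00, unadjusted p = 0.040). *Itga5* was 71.8 and 60.8 against 92.1, 98.1, 161.3 and 166.6 (-0.84 ± 0.36, unadjusted p = 0.044 by edgeR). *Itga4* was 10.10 and 4.10 against 2.60, 3.46, 1.09 and 0.058 (1.73 ± 1.39, unadjusted p = 0.24 by edgeR). *Itga8* was 0.38 and 0.57 against 0.34, 0.062, 0.103 and 0.29 (0.64 ± 1.35, unadjusted p = 0.65 by edgeR). The tissue of Acta2GFP alone met elastase, so line and dissociation cannot be told apart. On both PdgfraGFP plates *Itga8* was 0.

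**Figure D4:**
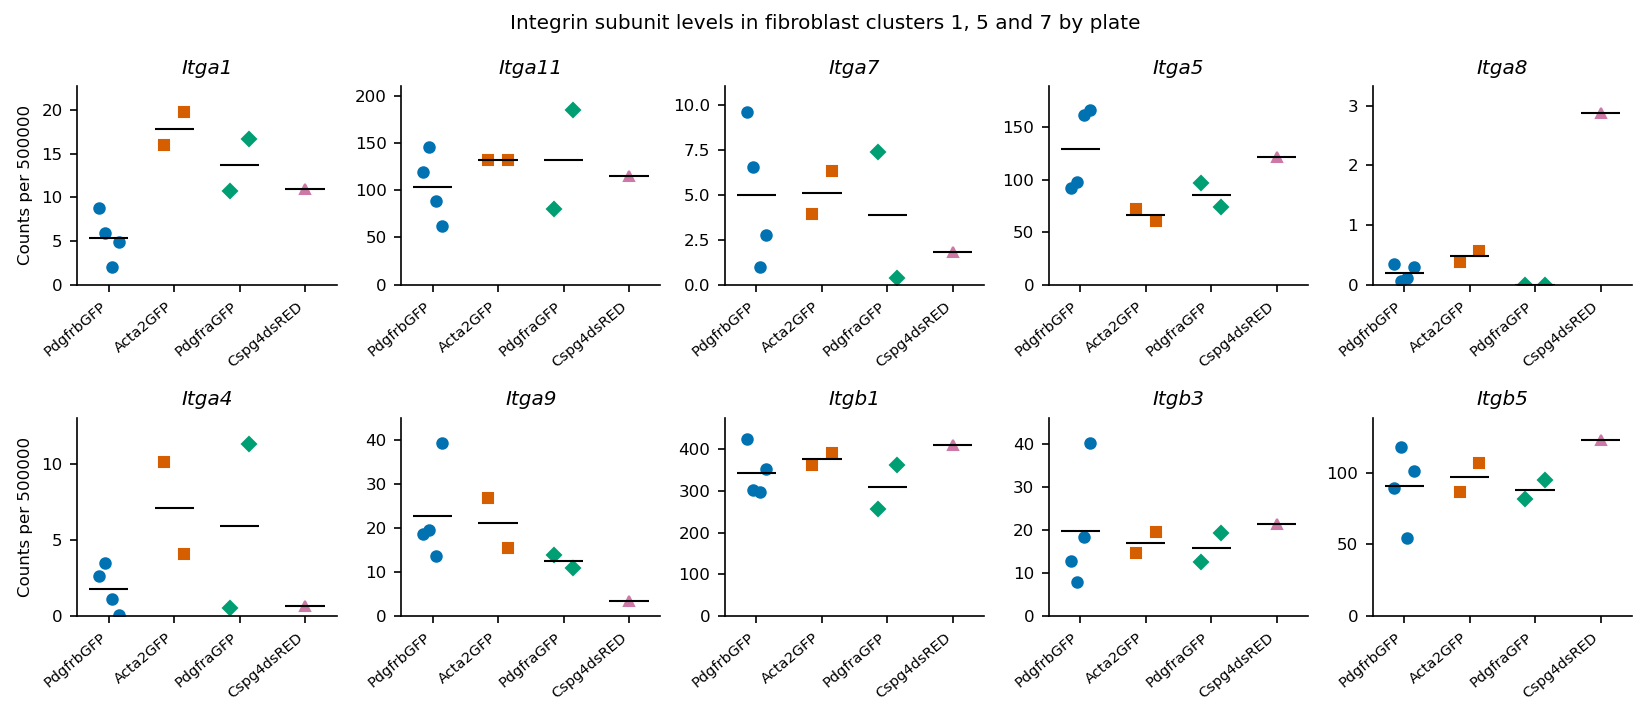
Levels (counts per 500000, axis from 0) in fibroblast clusters 1, 5 and 7, with 1 symbol per plate and a bar at the mean of each reporter line. The plates of the lines overlap for most subunits. *Itga1* is higher and *Itga5* lower on the Acta2GFP plates than on those of PdgfrbGFP.

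Of the 16 other integrin subunits, 3 reached 20 counts per 500000 in a cluster. *Itgav*, the partner of β3 and β5, ranged from 28.5 ± 5.9 in cluster 3 to 67.3 ± 13.9 in cluster 2, with a log2 difference of 0.26 ± 0.31 between fibroblasts and mural cells (adjusted p = 0.74) and of 0.88 ± 0.35 for cluster 2 against clusters 1, 5 and 7 (adjusted p = 0.17). *Itga3*, a laminin receptor chain, was 38.2 ± 15.9 in cluster 3 and at most 4.4 in every other cluster, and was lower in fibroblasts than in mural cells (-4.36 ± 0.64, adjusted p = 0.0043). *Itgb8*, a β chain that pairs with αv, reached 25.4 ± 25.3 in cluster 6. *Itga10* also passed as lower in fibroblasts (-4.38 ± 0.93, adjusted p = 0.022) but did not exceed 7.3 in any cluster, and was named after its value was seen. Of the 13 tested, none passed in any other comparison.

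Of the adhesion complex, the proteins that couple integrin tails to actin, 7 of 27 genes were lower in fibroblasts than in mural cells and none was higher, beside 3.36% and 3.21% of all genes. Among them were *Actn1* (-2.89 ± 0.61) and *Flna* (-2.63 ± 0.30), the α-actinin and filamin genes, with the median of the list at -0.97. In cluster 2, 7 genes were higher and 2 lower than in clusters 1, 5 and 7, beside 4.42% and 1.86% of all genes. Higher were *Parvb* (4.58 ± 0.86), at only 5.2 ± 2.5 in cluster 2, and *Bcar1* (2.51 ± 0.46), while *Lims2*, the PINCH2 adaptor, was lower (-4.62 ± 0.65) and so was *Tns2* (-1.39 ± 0.29). *Lims2* was the only gene of the list to pass between clusters 7 and 1, where it was higher in cluster 7 (3.56 ± 0.65). In the other 4 comparisons none passed.

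Of the integrin ligand genes, 13 of 28 tested were higher in fibroblasts than in mural cells and 2 were lower, beside 3.21% and 3.36% of all genes, with a median log2 difference of 1.46. *Edil3* (3.87 ± 0.73), *Fbn1* (3.47 ± 0.41) and *Vcam1* (3.09 ± 0.53) led among the higher, and *Vtn*, vitronectin (-5.77 ± 1.11), and *Mfge8* (-1.39 ± 0.28) were the lower. *Vtn* reached a mean of 470 in cluster 4 and at most 45.8 in the other clusters. In cluster 2, 6 of 29 ligands were higher and 7 lower, beside 4.42% and 1.86% of all genes. *Npnt*, nephronectin (7.32 ± 1.17), *Lama5* (7.28 ± 0.49) and *Tnc* (4.86 ± 0.60) were higher, the last pair being apex markers, and *Lama2* (-4.90 ± 0.76), *Ccn3* (-3.83 ± 1.07) and *Lamb2* (-3.21 ± 0.53) lower. Between cluster 7 and cluster 1, *Nid1* was higher (2.13 ± 0.40) and *Tnc* (-4.61 ± 0.94) and *Lama5* (-3.06 ± 0.68) lower. In pericytes 10 of 29 ligands were higher than in vascular smooth muscle and none was lower, led by *Lamb1* (5.31 ± 0.48), *Vcam1* (4.52 ± 0.92) and *Lama2* (4.25 ± 0.81). Of all genes 0.621% and 0.198% passed in these directions. In cluster 8, which had 1 sum and whose errors come from the spread of other clusters, 6 passed as higher than in cluster 3, led by *Postn* (6.64 ± 0.76), *Lamb1* (5.96 ± 0.53) and *Col3a1* (4.23 ± 0.47), and *Mfge8* passed as lower (-1.80 ± 0.33), beside 0.879% and 0.129% of all genes. The fibroblast markers summed to 1254 in cluster 4 and 1081 in cluster 8 against 356.9 in cluster 3, and *Lama2*, *Lamb1*, *Vcam1* and *Col3a1* had higher mean levels in fibroblasts than in mural cells. The part of these markers in the ligand counts was not tested.

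The genes whose levels ran most like each subunit were sought over the 21 cluster and line means among 8580 genes with at least 20 counts per 500000 in a cluster. These means share lines, plates and depth, so r is a description. *Itga11* ran with *Tgfbr2* (Pearson r = 0.98), *Ly6a* (0.97) and *Lpar1* (0.96). *Itga8* ran with *Slc2a4* (0.96), *Asb2* (0.95) and *Plekho1* (0.95), and *Itgb1* with *Acta2* (0.91), *Myh11* (0.91) and *Btbd3* (0.91). *Itga1* ran with *Pde5a* (0.90), *Cald1* (0.87) and *Filip1l* (0.86), *Itga7* with *Ptp4a3* (0.91), *Cnnm2* (0.91) and *Ttll7* (0.90), and *Itga4* with *Gm15943* (0.91), *Gcnt2* (0.91) and *Epas1* (0.91). The closest genes were more loosely tied for *Itga9* (*Arhgap20*, 0.82, *Bag3*, 0.79, and *Mxra8os*, 0.79), *Itga5* (*Jup*, 0.80, and *Pla2g4a*, 0.78), *Itgb3* (*Dap*, 0.80, *Myadm*, 0.78, and *Postn*, 0.77) and *Itgb5* (*Hdac10*, 0.85, *Gpc6*, 0.81, and *Trappc8*, 0.80).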

How the data were processed

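SmartSeq2 libraries of single colon cells were analysed. The authors mapped single 50-base reads to GRCm38 with TopHat2, counted them per gene with featureCounts and deposited the raw counts as a table of 46609 rows by 1646 cells. Whether strand was used is not given in the sources used here. The 92 ERCC rows (1.36% of counts) were left out. For testing, counts were added up across all cells sharing a line and a class or cluster, or of clusters 1, 5 and 7 within each plate, where at least 10 cells were present (21 cluster sums). The sums passed through filterByExpr and TMM normalization into edgeR 4.0.16 (glmQLFit, glmQLFTest), with p adjusted by Benjamini-Hochberg over all genes at 0.05; SE is the log2 difference over the root of F. All clusters shared 1 fit. R 4.3.3, limma 3.58.1 and DESeq2 1.42.0 were used.

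Named genes were the 10 members, other integrin subunits reaching 20 counts per 500000, up to 3 called genes in each direction of the adhesion and ligand lists, and the 3 most similar genes per member. Some genes that meet this rule are not reported here. The members and lists were chosen with earlier results of these data known. Whether sums of 1 line deviate together was checked by correlation, and r was 0.152 to 0.175 for fibroblasts and mural cells, 0.121 to 0.170 for clusters 7 and 1, and 0.057 to 0.118 for clusters 2 and 5. The pairing comes from the shared line. Alternatives were DESeq2, no filter, limma on log2(mean + 1), the line as block, at least 3 cells, each line or plate left out, plates for lines, only the compared clusters, and the cluster as a term. Reads without molecular identifiers are not independent molecules, so depth and shares cover counting error only.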

Additional observations from a re-analysis of the deposited data

Results flagged for a closer look

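The fibroblast to mural difference of *Itga9* and *Itgb3* had opposite signs in different lines. On the log2(level + 1) scale, fibroblasts minus mural cells within plates averaged -1.86 for *Itga9* in Acta2GFP and 1.67 in PdgfrbGFP, and -1.86 for *Itgb3* in Acta2GFP and 2.40 in PdgfrbGFP. All plates of a line moved the same way (2 plates of Acta2GFP and 3 of PdgfrbGFP). The difference between the lines itself was not tested, and 10 members were looked at. In 1 line a value stood far from the other lines for 3 subunits. The Cspg4dsRED line was highest for *Itga8* in all fibroblasts (2.68) and in cluster 5 (5.02), and for *Itgb1* in cluster 5 (478.7), where it had 13 cells. These *Itga8* values rest on 9 and 7 counts, and the fibroblasts include the cluster 5 cells. PdgfraGFP was highest for *Itga11* in cluster 5 (211.3). The flagged values came from 4 of 30 groups of lines or plates examined. Chance alone flags about 1 in 20 groups where values are independent and normal, which was not tested.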

How the results depend on the processing

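Of 790 recomputed member differences, 713 kept direction and side of the threshold, 28 passed only in the alternative, 11 lost the threshold and 38 changed sign, none of them a called one. The count of members called was 4 for fibroblasts against mural cells, 7 with plates in place of lines, and 2 to 4 without 1 line, 2 being without PdgfrbGFP. It was 2 for cluster 2 (1 to 2 without 1 line, 1 without Acta2GFP and without PdgfrbGFP), 2 for cluster 8 (0 to 3, 0 without PdgfrbGFP), 0 for cluster 4 (2 with limma, 1 with plates and 1 with only the compared clusters, 0 to 1 without 1 line) and 0 for cluster 7 (1 with DESeq2, limma, no filter and plates). Of all genes, limma called 3.24% for cluster 4, plates 2.7% and only the compared clusters 0.778%. For cluster 7, DESeq2 called 2.86% of all genes, limma 1.96%, no filter 0.485% and plates 2.61%. With the line as a replicate block the member counts were 4, 2, 2, 0 and 0, so the pairing by line changed no call of a member. Of all genes the block called 3.08%, 5.95%, 1.07%, 0.994% and 0.773% in the same order. The block turned *Itgb3* to 0.30 (fibroblasts minus mural cells) and *Itga7* to -1.09 (cluster 2).

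Other reversals were all of values past no threshold. With limma *Itga5* became 0.16 and *Itgb5* 0.22 (cluster 4), *Itga7* -0.92 (cluster 2) and -0.56 (PdgfraGFP), *Itga9* -0.0445 and *Itgb3* 0.0136 (Acta2GFP) and *Itgb5* 0.0083 (PdgfraGFP). With the cluster as a term *Itga7* became -5.06, *Itgb3* 0.0814 and *Itgb5* 0.0063 (PdgfraGFP) and *Itga9* -0.13 (Acta2GFP). With plates *Itga5* became 0.23 (cluster 4) and *Itgb5* -0.28 (fibroblasts). *Itgb5* in cluster 4 became 0.0721 with DESeq2, 0.0174 without the filter and 0.0524 with the compared clusters only. Leaving out 1 line gave -2.85 to 3.27 for *Itga11*, -0.73 to 0.20 for *Itga7*, -3.96 to 0.23 for *Itga9* and -0.80 to 0.48 for *Itgb5* (cluster 4), -3.64 to 1.49 for *Itga7* and -0.18 to 0.29 for *Itgb1* (cluster 2), -0.60 to 3.85 for *Itga7* (cluster 7), -0.0154 to 0.32 for *Itgb1* (cluster 8), and -1.61 to 0.76 for *Itga9* and -1.04 to 1.14 for *Itgb3* (fibroblasts). Leaving out 1 plate gave -0.72 to 0.69 for *Itga11*, -1.81 to 1.76 for *Itga4*, -4.12 to 1.27 for *Itga7*, -0.41 to 0.0894 for *Itgb1* and -0.43 to 0.0128 for *Itgb5* (PdgfraGFP), and -0.42 to 0.55 for *Itga9* and -0.62 to 0.0566 for *Itgb3* (Acta2GFP). The cause was not tested.

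The percent of tested genes called depended on the tool and the lines. It was 6.57% for fibroblasts against mural cells (1.81% without PdgfrbGFP, 15.3% with DESeq2, 16.1% with plates), 6.28% for cluster 2 (2.00% without Acta2GFP, 9.48% with DESeq2, 10.4% with plates), 0.488% for cluster 7 (0.0709% without Acta2GFP, 2.86% with DESeq2), 0.819% for cluster 4 (0.226% without PdgfrbGFP, 5.57% with DESeq2) and 1.01% for cluster 8 (0.485% without PdgfrbGFP, 5.14% with DESeq2). Between lines it was 0 (up to 0.164% for Acta2GFP and 1.49% for PdgfraGFP with DESeq2). Levels from summed counts lay within 1 SD of the means for 62 of 80. Thinning removes reads and so lowers most shares of cells by design. With it 83 of 100 shares left their 95% binomial interval, which takes pooled cells as independent. Cluster 8, with 1 line, has no spread of its own and could not be fitted without Acta2GFP.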
